A study of Mus musculus with 10 samples.

Results

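To describe the T cell receptor complex in obstructed kidneys, the genes of its CD3 and zeta chains (Cd3d, Cd3e, Cd3g and Cd247), its coreceptors (Cd4, Cd8a and Cd8b1) and its proximal kinases (Lck and Zap70) were read from bulk RNA-seq of UUO kidneys. The genes were chosen by name and make up 9 of 54532 genes in the count table. All 9 passed the filter on low counts. Unilateral ureteral obstruction (UUO) is a model of obstructive nephropathy in which the left ureter is tied off. Dimethyl malonate (DMM) is a malonate ester that enters cells and inhibits succinate dehydrogenase. WT male mice on the C57BL/6 background underwent UUO at 8 weeks of age, received intraperitoneal DMM at 40 mg/kg or PBS on alternate days, and gave their kidneys 14 days after surgery. Every mouse in both groups had an obstructed ureter, and unobstructed kidneys were not analysed here.

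The T cell receptor recognises peptides held by MHC molecules, but its alpha and beta chains have almost no cytoplasmic part and rely on the CD3 and zeta chains for signalling. CD4 and CD8 bind MHC class II and class I molecules and bring the kinase LCK to the receptor, where LCK phosphorylates the CD3 and zeta chains and ZAP70 then docks on them. T cells are sparse in a healthy kidney and accumulate in the interstitium after ureteral obstruction, together with macrophages and dendritic cells.

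Each group had 5 mice with a single library each. Total counts were 16457495 to 18078777 in the PBS group, with a median of 17825223, and 15722527 to 19475833 in the DMM group, with a median of 16794390. Levels are given as CPM, read counts scaled to a common library size after TMM normalization, which corrects for differences in library composition. The T cell receptor genes were scarce in whole kidney RNA, with 34 to 421 counts per gene and library in PBS kidneys and 4 to 217 in DMM kidneys.

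Some libraries stood apart. The group means that the authors deposited could be rebuilt exactly from 8 libraries, and PBS replicate 3 and DMM replicate 1 did not enter them. Among 12 interferon response genes, summed levels were 3056 CPM in DMM replicate 1 and between 341 and 463 CPM in the other DMM libraries, against 2439 to 4298 CPM in PBS libraries. Among 8 proximal tubule genes, summed levels were 4942 CPM in PBS replicate 3 and between 815 and 2021 CPM in the other PBS libraries, against 1415 CPM in DMM replicate 1 and 4017 to 5829 CPM in the other DMM libraries. DMM replicate 4 had a TMM scaling factor of 0.852, while the other libraries had factors of 0.981 to 1.05. Its counts also lacked Cd27, Cd40lg, Tbx21, Cd79a, Tcrg-C1 and Tcrg-C4, which are lymphocyte genes detected in each of the other 9 libraries. Fold changes and counts of called genes are therefore given over 10 libraries and again over the 8 libraries of the authors' means. The sets share 8 libraries, so that neither checks the other. Each library left out lay near the other group for interferon response or proximal tubule genes. Leaving such libraries out can widen the difference between groups, so p-values over 8 libraries may be too small and their calls too many.

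All 9 T cell receptor genes had lower mean levels in DMM-treated than in PBS-treated UUO kidneys, with a median of -0.88 over 10 libraries and -1.19 over 8 for the log2 fold change, when the median over all tested genes was 0.02 in each set. Their summed level in the PBS group was 58.3, 58.7, 57.4, 49.8 and 86.8 CPM in replicates 1 to 5, and in the DMM group it was 53.8, 45.3, 19.6, 23.4 and 24.2 CPM. DMM replicates 3, 4 and 5 were low and lay below every PBS library for 9 of 9 genes. DMM replicates 1 and 2 were each below every PBS library for 5 of 9 genes, with sums near those of the PBS libraries. PBS replicate 5 had the highest sum of all. In bulk RNA, fewer T cells and less receptor RNA per T cell cannot be told apart.

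A gene was called at a p-value adjusted by edgeR over all tested genes under 0.05 with a fold change above 1.5. Over 10 libraries edgeR called 0 of the 9 genes lower, and 0.0% of 16505 tested genes. At an unadjusted p under 0.05 with the same fold, edgeR gave 7 of the 9 genes, all but Cd8a and Cd8b1, against 4.11% of tested genes in that direction, and DESeq2 called 0 of the 9 at an adjusted p, against 0.201% of the 16430 genes it tested. Groups did not overlap for 3 of the 9, Cd3d, Cd4 and Lck, against 1.16% of tested genes. Over 8 libraries edgeR called 1 of 9, Cd4, against 3.56% of 16550 tested genes, and groups did not overlap for 5 of 9 (Cd3d, Cd3g, Cd247, Cd4 and Lck) against 10.7%. The unadjusted p with the fold gave 8 of 9, all but Cd8b1, against 7.24%. DESeq2 called 5 of 9 over the 8 libraries (Cd247, Cd3g, Cd4, Cd8a and Lck), against 4.51% of the 20165 genes it tested.

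**Figure D1:**
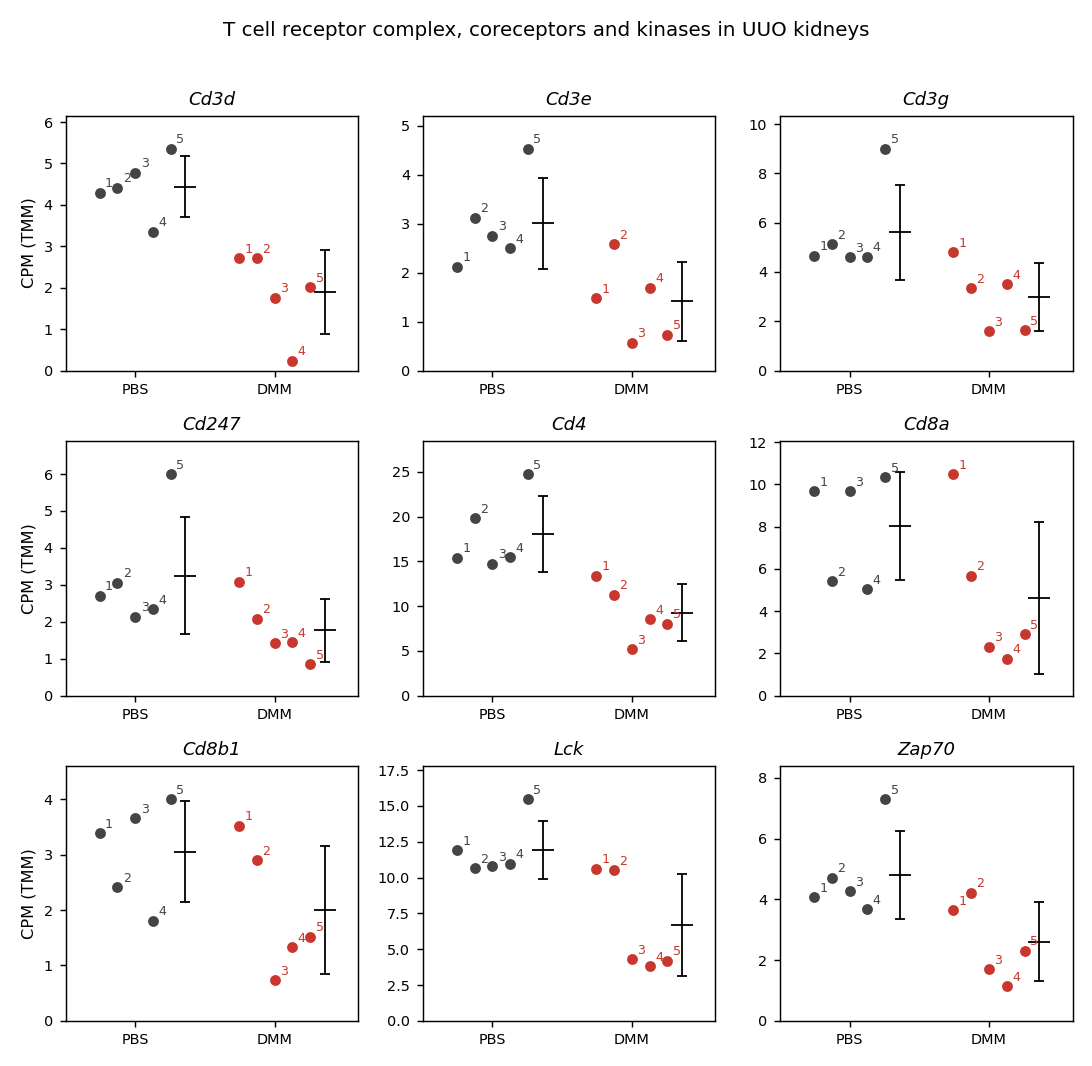
Levels of the 9 genes in each library, in CPM after TMM scaling, with PBS in grey and DMM in red. Points carry the replicate number, and the bar beside each group is the mean with the SD of 5 mice. DMM replicates 3, 4 and 5 lie below every PBS library in each panel, and PBS replicate 5 is the highest PBS point in each panel.

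The CD3 delta, epsilon and gamma chains pair within the complex and carry its signalling motifs. Cd3d, the delta chain, had 4.29, 4.41, 4.78, 3.35 and 5.35 CPM in PBS replicates 1 to 5 and 2.72, 2.71, 1.76, 0.242 and 2.01 CPM in DMM replicates 1 to 5. Every DMM library was below every PBS library, and DMM replicate 4 was far below the rest, with 4 counts. The mean was 4.44 ± 0.734 CPM in PBS and 1.89 ± 1.01 CPM in DMM (SD, n = 5 each), a log2 fold change of -1.23 (SE 0.44) with an adjusted p of 0.387 by edgeR. Over the 8 libraries it was -1.37 (SE 0.52, adjusted p = 0.166 by edgeR), and without DMM replicate 4 it was -0.95 over the remaining 9 libraries.

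Cd3e, the epsilon chain, had 2.12, 3.12, 2.75, 2.50 and 4.53 CPM in the PBS libraries and 1.48, 2.58, 0.567, 1.69 and 0.729 CPM in the DMM libraries. DMM replicate 2 was within the PBS range and the other DMM libraries were below it. The means were 3.0 ± 0.927 and 1.41 ± 0.812 CPM, with a log2 fold change of -1.09 (SE 0.39, adjusted p = 0.388 by edgeR), and -1.14 (SE 0.49, adjusted p = 0.215) over the 8 libraries.

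Cd3g, the gamma chain, had 4.66, 5.12, 4.61, 4.63 and 9.0 CPM in PBS and 4.81, 3.34, 1.59, 3.50 and 1.64 CPM in DMM. Replicates 1 to 4 of the PBS group were close together, PBS replicate 5 was well above them, and DMM replicate 1 lay among them. The means were 5.60 ± 1.91 and 2.98 ± 1.37 CPM, with a log2 fold change of -0.91 (SE 0.34, adjusted p = 0.394 by edgeR). It was -1.22 over the 8 libraries (SE 0.36, adjusted p = 0.0794), where the groups did not overlap, and -0.67 when PBS replicate 5 was left out of the 10.

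Cd247 encodes the zeta chain, which holds most of the tyrosines that LCK phosphorylates and is also used by NK cell receptors. Its levels were 2.70, 3.06, 2.14, 2.34 and 6.0 CPM in PBS and 3.09, 2.08, 1.42, 1.45 and 0.851 CPM in DMM. PBS replicate 5 again stood above the rest, DMM replicate 1 was within the PBS range, and DMM replicates 2 to 5 were below it. The means were 3.25 ± 1.58 and 1.78 ± 0.851 CPM, with a log2 fold change of -0.87 (SE 0.39, adjusted p = 0.450 by edgeR), -1.28 over the 8 libraries (SE 0.39, adjusted p = 0.0870) and -0.52 without PBS replicate 5 over 9 libraries. Cd247 overlaps Pou2f1 on the opposite strand, and whether the authors' counting used the strand is not given in the sources used here. Pou2f1, with up to 1541 counts, had a log2 fold change of 0.33 (SE 0.25, adjusted p = 0.603 by edgeR) over 10 libraries and 0.37 (adjusted p = 0.525) over 8, and 93.1 CPM in DMM replicate 4 against 33.4 to 44.9 CPM in the other libraries, so that reads of the shared stretch make the level of Cd247 less certain.

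Among the coreceptors, Cd4 marks helper and regulatory T cells and, at lower levels, some macrophages and dendritic cells. It had 15.4, 19.8, 14.7, 15.5 and 24.8 CPM in PBS replicates 1 to 5 and 13.4, 11.3, 5.21, 8.52 and 8.02 CPM in DMM replicates 1 to 5. The groups did not overlap, and DMM replicate 1 came closest to the PBS libraries. The means were 18.0 ± 4.27 and 9.29 ± 3.15 CPM, with a log2 fold change of -0.96 (SE 0.25, adjusted p = 0.378 by edgeR), and no gene reached a smaller adjusted p over 10 libraries. Over the 8 libraries Cd4 fell by 1.19 on the log2 scale (SE 0.26, adjusted p = 0.0271 by edgeR), with each of 4 DMM libraries below each of 4 PBS libraries. This call was lost without PBS replicate 2, 4 or 5 or DMM replicate 3 or 5, with adjusted p between 0.00950 and 0.0922 by edgeR when single libraries were left out of the 8. Over 10 libraries, DESeq2 gave Cd4 an adjusted p of 0.0533.

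Cd8a, the CD8 chain that binds LCK, is made by cytotoxic T cells and a subset of dendritic cells. It had 9.69, 5.41, 9.67, 5.05 and 10.4 CPM in PBS and 10.5, 5.67, 2.32, 1.75 and 2.92 CPM in DMM. PBS replicates 2 and 4 were low and the other PBS libraries high, DMM replicate 1 was slightly above all of them, DMM replicate 2 lay within their range, and DMM replicates 3 to 5 were below it. The means were 8.04 ± 2.58 and 4.63 ± 3.61 CPM, with a log2 fold change of -0.80 (SE 0.46, adjusted p = 0.532 by edgeR) over 10 libraries and -1.27 (SE 0.40, adjusted p = 0.102) over 8. Leaving single libraries out of the 10 moved it from -1.35 without DMM replicate 1 to -0.59 without DMM replicate 4. Cd8b1, the beta chain that pairs with Cd8a on most cytotoxic T cells, had 3.39, 2.41, 3.65, 1.81 and 4.0 CPM in PBS and 3.52, 2.90, 0.737, 1.33 and 1.52 CPM in DMM. The same PBS replicates, 2 and 4, were low for both CD8 chains, and for Cd8b1 both DMM replicates 1 and 2 were within the PBS range. For Cd8b1 the means were 3.05 ± 0.912 and 2.0 ± 1.16 CPM, with a log2 fold change of -0.61 (SE 0.40, adjusted p = 0.563 by edgeR), and -0.84 (SE 0.43, adjusted p = 0.303) over the 8 libraries. With single libraries left out it ranged from -0.92 (without DMM replicate 1) to -0.40 (without DMM replicate 3) over 10 libraries, and from -1.28 (without DMM replicate 2) to -0.60 (without DMM replicate 3) over 8.

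The balance of the coreceptors was compared within each library, where library size cancels. The log2 ratio of Cd4 to Cd8a counts was 0.67, 1.87, 0.61, 1.61 and 1.26 in PBS and 0.35, 0.99, 1.16, 2.26 and 1.45 in DMM. Cd4 exceeded Cd8a in all 10 libraries, and the groups overlapped over nearly their whole range. The mean ratio was 1.20 ± 0.56 in PBS and 1.24 ± 0.70 in DMM, a difference of 0.04 (exact two-sided permutation test, 252 relabelings, p = 0.937), and over the 8 libraries the difference was 0.11 (exact permutation p = 0.80). Leaving out DMM replicate 4 gave -0.21 and leaving out DMM replicate 1 gave 0.26, so the sign of this difference was not determined by these data.

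LCK starts the receptor's signal and ZAP70 passes it on to adaptors in the cell. Lck had 11.9, 10.7, 10.8, 11 and 15.5 CPM in PBS and 10.6, 10.5, 4.31, 3.81 and 4.19 CPM in DMM. The groups did not overlap, but DMM replicates 1 and 2 lay just under the PBS libraries while DMM replicates 3 to 5 were far below. The means were 12 ± 2.02 and 6.69 ± 3.55 CPM, with a log2 fold change of -0.84 (SE 0.32, adjusted p = 0.403 by edgeR), and -1.10 (SE 0.34, adjusted p = 0.0911) over the 8 libraries. Zap70 had 4.08, 4.71, 4.27, 3.67 and 7.29 CPM in PBS and 3.64, 4.22, 1.70, 1.15 and 2.31 CPM in DMM. DMM replicate 2 was within the PBS range and DMM replicate 1 just below it. The means were 4.80 ± 1.44 and 2.60 ± 1.30 CPM, with a log2 fold change of -0.88 (SE 0.35, adjusted p = 0.414 by edgeR), and -1.07 (SE 0.41, adjusted p = 0.166) over the 8 libraries. NK cells also use both kinases.

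Between genes, levels were compared as deposited FPKM, which divides by gene length. In PBS kidneys the order was Cd4 (4.44 ± 1.06 FPKM), Lck (4.05 ± 0.694), Cd3d (2.43 ± 0.403), Cd8a (2.19 ± 0.703), Cd8b1 (2.04 ± 0.611), Cd3g (1.70 ± 0.584), Zap70 (1.59 ± 0.481), Cd3e (0.731 ± 0.227) and Cd247 (0.605 ± 0.296). Lck lay above Cd3d and Zap70 above Cd3e with no overlap between PBS libraries, and the other neighbours in this order overlapped. In DMM kidneys Lck was above Cd3d in 5 of 5 libraries and Zap70 above Cd3e in 4 of 5.

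The level of the 9 genes varied between libraries of a group. Relative to the PBS mean, the median log2 level of the 9 genes was -0.22 in DMM replicate 1, -0.50 in replicate 2, -1.79 in replicate 3, -1.20 in replicate 4 and -1.46 in replicate 5, and it was 0.46 in PBS replicate 5. DMM replicate 4 was the most uneven, from -4.20 for Cd3d to -0.68 for Cd3g. It is part of both library sets, and without it the log2 fold changes over the remaining 9 libraries were -0.95 for Cd3d, -1.17 for Cd3e, -0.98 for Cd3g, -0.80 for Cd247, -0.93 for Cd4, -0.59 for Cd8a, -0.50 for Cd8b1, -0.69 for Lck and -0.69 for Zap70. When single libraries were left out of the 8, the log2 fold changes of Cd3d (-1.70), Cd3e (-1.63), Cd247 (-1.51), Cd4 (-1.39), Cd8a (-1.71), Lck (-1.58) and Zap70 (-1.52) were furthest from 0 without DMM replicate 2. The genes closest to the 9 members by Pearson r across 10 libraries, after each group's mean was subtracted and out of 13846 genes with at least 1 CPM throughout, were Il2rb (Pearson r = 0.974, Spearman rho = 0.952), Hvcn1 (0.972 and 0.939), Cxcr6 (0.966 and 0.842), Trac (0.958 and 0.939) and Fam78a (0.944 and 0.964). These correlations describe how the libraries vary, with PBS replicate 5 and DMM replicates 1 and 2 high in their groups for the 9 genes. Il2rb encodes an interleukin receptor chain of T and NK cells and had a log2 fold change of -0.80 (adjusted p = 0.378 by edgeR), and -1.07 (adjusted p = 0.0258) over the 8 libraries.

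Several of the genes are neighbours in the genome. On mm10, Cd3g (chr9:44969572-44980431, minus strand), Cd3d (chr9:44981786-44987339, plus strand) and Cd3e (chr9:44998740-45009627, minus strand) are neighbours, and Cd3g and Cd3d are read outward from starts 1355 bases apart. Cd8b1 (chr6:71322788-71337494) and Cd8a (chr6:71373427-71379173) lie side by side on the plus strand with starts 50639 bases apart, and Cd4 (chr6:124864692-124888221, minus strand) is on the same chromosome. Cd247 (chr1:165788681-165877277, plus strand) and Zap70 (chr1:36761798-36782818, plus strand) share a chromosome, and Lck is at chr4:129548344-129573641 on the minus strand. The neighbours Cd3g and Cd3d did not track each other in every library, since DMM replicate 4 held 58 counts of Cd3g and 4 of Cd3d.

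Promoter sequences of the genes are shown as a description, and their part in the levels was not tested. RefSeq promoter windows of 300 bases on GRCm38.p6, with 250 bases before the start and 50 after it, matched 7 of the 9 genes with 10 windows, and Cd4 and Cd8b1 had no entry. The motifs were chosen after these sequences had been read, so the shares below are no test of enrichment. The word AGGAAGT, read on both strands, holds the GGAA core that ETS family factors recognise and was found in 5 of the 10 windows, of 4 genes (Cd3d, Cd3e, Cd247 and Lck), and in 9.35% of 32851 promoter windows. CAGGTG, an E-box word, was found in 8 of the 10 windows, of 6 genes, and in 20.2% of all windows, and TATAAA in 0 of the 10 and in 13.6%. The windows with AGGAAGT or its reverse complement ACTTCCT are printed 5′ to 3′ on the gene's strand with those letters in capitals, the upstream window for Lck, and a match is a description of letters only.
Cd3d, chr9:44981536-44981835, plus strand: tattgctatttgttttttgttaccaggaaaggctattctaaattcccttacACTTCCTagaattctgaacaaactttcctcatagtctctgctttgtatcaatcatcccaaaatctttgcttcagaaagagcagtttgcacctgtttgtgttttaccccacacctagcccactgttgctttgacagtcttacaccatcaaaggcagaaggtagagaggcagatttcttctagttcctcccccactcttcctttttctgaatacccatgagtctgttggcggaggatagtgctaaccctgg
Cd3e, chr9:45009562-45009861, minus strand: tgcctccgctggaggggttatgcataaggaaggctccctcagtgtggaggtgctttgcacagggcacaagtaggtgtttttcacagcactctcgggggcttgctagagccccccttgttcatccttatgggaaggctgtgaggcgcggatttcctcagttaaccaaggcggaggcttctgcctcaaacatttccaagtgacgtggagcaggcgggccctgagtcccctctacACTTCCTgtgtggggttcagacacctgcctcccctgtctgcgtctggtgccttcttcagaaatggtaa
Cd247, chr1:165788431-165788730, plus strand: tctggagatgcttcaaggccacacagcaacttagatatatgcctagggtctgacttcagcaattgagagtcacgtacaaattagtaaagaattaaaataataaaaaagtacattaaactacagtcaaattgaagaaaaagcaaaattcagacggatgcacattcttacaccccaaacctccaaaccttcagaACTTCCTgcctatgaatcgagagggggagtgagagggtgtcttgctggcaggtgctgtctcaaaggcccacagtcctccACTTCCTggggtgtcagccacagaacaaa
Lck, chr4:129573592-129573891, minus strand: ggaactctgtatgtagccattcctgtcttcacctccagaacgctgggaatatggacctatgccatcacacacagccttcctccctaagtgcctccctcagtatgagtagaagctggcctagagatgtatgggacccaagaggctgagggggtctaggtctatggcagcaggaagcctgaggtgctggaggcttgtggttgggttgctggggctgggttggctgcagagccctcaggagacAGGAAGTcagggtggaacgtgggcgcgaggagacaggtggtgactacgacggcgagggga
Cd247 holds the word more than once, and the windows of Cd3g, Cd8a and Zap70 do not hold it.

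The other genes of T cells were read from 4 lists, and those of other cells and of interferon from 8 more. Over 10 libraries edgeR called 0 genes of these 12 lists, and DESeq2 called 1, Ccr7. Of 7 constant region genes of the T cell receptor itself, 5 passed the filter, 5 of 5 were lower in DMM, 1 at an unadjusted p under 0.05 with the fold, and the median log2 fold change was -0.67. With 8 libraries edgeR called 0 (2 at an unadjusted p with the fold), DESeq2 called 1, Tcrg-C2, and the median was -0.93. Trac, the alpha chain constant region, had 6.25, 7.47, 5.62, 4.95 and 9.76 CPM in PBS and 6.79, 6.49, 1.93, 2.05 and 3.28 CPM in DMM, so that DMM replicates 1 and 2 again lay among the PBS libraries. Its log2 fold change was -0.73 (SE 0.38, adjusted p = 0.504 by edgeR), and -1.05 over the 8 libraries (adjusted p = 0.175). Trbc2, a beta chain constant region, had -0.67 (SE 0.35, adjusted p = 0.505) and over 8 libraries -0.87 (adjusted p = 0.243), and Tcrg-C2, of the gamma chain, had -1.85 (SE 0.63, adjusted p = 0.385) and over 8 libraries -2.18 (adjusted p = 0.116). The 10-library value for Tcrg-C2 ranged from -2.37 without DMM replicate 4 to -1.22 without PBS replicate 5, which held 53 counts against 11 to 22 in the other PBS libraries. Trbc2 and Tcrg-C2 have near-identical copies (Trbc1 and the other gamma constant regions) with which they can share reads, so their levels are uncertain.

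Of 29 genes that carry or restrain the receptor's signal inside the cell, 25 were lower over 10 libraries, of which 8 passed an unadjusted p under 0.05 with the fold, and the median over the list was -0.36. Over the 8 libraries edgeR called 5 lower, with Fyn, Ptpn6 and Vav1 among them, DESeq2 called 9, and the median was -0.46. Ptpn6, a phosphatase that restrains signalling in many blood cells, had -0.59 (SE 0.18, adjusted p = 0.378) over 10 libraries and -0.77 (adjusted p = 0.0252) over 8. Fyb, an adaptor of T and myeloid cells, had -0.44 (SE 0.12, adjusted p = 0.378), and -0.54 (adjusted p = 0.0377) over 8 libraries, under the fold threshold. Fyn, Ptpn6, Vav1 and Fyb are also expressed by other immune cells.

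Of 15 other T cell surface genes, 13 passed the filter and 13 of 13 were lower, 9 of them at an unadjusted p under 0.05 with the fold, and the median was -0.91. With 8 libraries edgeR called 3 lower, Cd2, Ccr7 and Slamf6, DESeq2 called 6, and the median was -1.11. Ccr7, the receptor that guides naive T cells and mature dendritic cells to lymph nodes, had 10.3, 14.4, 10.3, 8.51 and 11.8 CPM in PBS and 8.76, 4.54, 2.44, 2.90 and 4.56 CPM in DMM. DMM replicate 1 was the only DMM library within the PBS range for Ccr7, its log2 fold change was -1.25 (SE 0.32, adjusted p = 0.378 by edgeR) over 10 libraries, and it fell by 1.64 on the log2 scale (SE 0.27, adjusted p = 0.00963) over 8. Cd5, which dampens receptor signalling, had -1.03 (SE 0.31, adjusted p = 0.378), and -1.11 (adjusted p = 0.118) over 8 libraries. Ly9, a SLAM family receptor of lymphocytes, had -0.76 (SE 0.27, adjusted p = 0.388), and -0.92 (adjusted p = 0.104) over 8 libraries.

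Of 13 transcription factors of the T lineage, 11 had lower levels, 3 at an unadjusted p under 0.05 with the fold, and the median was -0.35. Over the 8 libraries edgeR called 1 lower, Runx3, DESeq2 called 3, and the median was -0.41. Foxp3, which defines regulatory T cells, had 1.96, 3.06, 1.29, 1.81 and 3.18 CPM in PBS and 1.48, 1.58, 0.793, 0.544 and 0.365 CPM in DMM, with DMM replicates 1 and 2 above PBS replicate 3. Its log2 fold change was -1.24 (SE 0.42, adjusted p = 0.385 by edgeR), and -1.60 over the 8 libraries (SE 0.45, adjusted p = 0.0687). Runx3, a factor of CD8 T cells and NK cells that is also found in myeloid cells, had -0.64 (SE 0.25, adjusted p = 0.408), and -0.97 over the 8 libraries (adjusted p = 0.0178), while Ikzf3, a factor of T and B lymphocytes, had -0.73 (SE 0.22, adjusted p = 0.378), and -0.92 (adjusted p = 0.0524) over 8 libraries.

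Markers of cells that share some of these genes were read beside them. The 7 NK cell markers summed to 10.3, 8.12, 11.1, 7.24 and 11.6 CPM in PBS and 9.13, 5.67, 5.55, 9.18 and 6.81 CPM in DMM, so DMM replicates 1 and 4 lay within the PBS range. Of the 7, 6 had lower levels, 2 at an unadjusted p under 0.05 with the fold, with a median of -0.35. Both edgeR (1 at an unadjusted p with the fold) and DESeq2 called 0 with 8 libraries, where the median was -0.32. Gzma, a granzyme with the highest CPM of them over both groups together, had 2.42 ± 0.621 CPM in PBS and 1.26 ± 0.469 CPM in DMM (log2 fold change -0.94, SE 0.31, adjusted p = 0.385 by edgeR), and a log2 fold change of -0.98 (adjusted p = 0.172) over 8 libraries. Ncr1, the marker that defines NK cells, was low but detected in all 10 libraries, from 0.0630 to 2.19 CPM.

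The 8 dendritic cell markers summed to 85.3, 83.5, 77.0, 73.2 and 91.6 CPM in PBS and 92.3, 71.0, 46.5, 70.3 and 54.5 CPM in DMM, with DMM replicate 1 above every PBS library. Of the 8, 7 had lower levels, 1 at an unadjusted p under 0.05 with the fold, and the median was -0.47. With 8 libraries edgeR called 1 lower, Itgae, DESeq2 called 3, and the median was -0.65. Zbtb46, the most abundant, had 29.7 ± 1.83 CPM in PBS and 28.7 ± 5.06 CPM in DMM (log2 fold change -0.05, SE 0.13, adjusted p = 0.882), and a log2 fold change of -0.09 (adjusted p = 0.787) over 8 libraries. The mean sum of the dendritic cell list was 82.1 CPM in PBS and 66.9 CPM in DMM, so Zbtb46 held a large part of it. The level of Zbtb46 does not stand for the other dendritic cell markers. The 9 macrophage markers summed to 1701, 1531, 1346, 1590 and 1803 CPM in PBS and 1481, 1024, 876, 734 and 876 CPM in DMM, and DMM replicate 1 was within the PBS range with the rest below it. Of the 9, 8 had lower levels, 6 at an unadjusted p under 0.05 with the fold, and the median was -0.72. With 8 libraries edgeR called 3 lower, Cd68, C1qb and Fcgr1, DESeq2 called 6, and the median was -0.97. C1qb, a complement component with the highest CPM of the macrophage markers over both groups together, had 327 ± 51.4 CPM in PBS and 166 ± 86.6 CPM in DMM. Its log2 fold change was -0.98 (adjusted p = 0.388 by edgeR) over 10 libraries and -1.35 (adjusted p = 0.0479) over 8.

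The 6 B cell markers summed to 15.2, 16.3, 13.8, 18.6 and 17.5 CPM in PBS and 16.7, 12.1, 7.54, 6.52 and 9.48 CPM in DMM, with DMM replicate 1 within the PBS range. Of the 6, 5 had lower levels, 1 at an unadjusted p under 0.05 with the fold, and the median was -0.30. With 8 libraries edgeR called 1 lower, Cd22, DESeq2 called 2, and the median was -0.70. Cd22, a B cell lectin with the highest CPM of them over both groups together, was at 7.78 ± 1.62 CPM in PBS and 3.51 ± 2.43 CPM in DMM. Its log2 fold change was -1.15 (adjusted p = 0.385 by edgeR) over 10 libraries and -1.79 (adjusted p = 0.00236) over 8. Cd79a was at 0 in DMM replicate 4. Of 6 neutrophil markers 4 passed the filter, with 0 called by edgeR or DESeq2 in either set (0 at an unadjusted p under 0.05 with the fold) and a median of -0.09, or -0.24 over 8 libraries. Their sums were 24.0, 23.2, 20.7, 101 and 31.5 CPM in PBS and 29.3, 17.4, 26.2, 77.0 and 25.5 CPM in DMM, high in PBS replicate 4 and DMM replicate 4. Csf3r was the most abundant, and Ly6g and Mpo were at 0 in some libraries of both groups.

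Tubular genes had higher medians in DMM-treated mice. The 8 proximal tubule markers summed to 1977, 2021, 4942, 815 and 1524 CPM in PBS and 1415, 4017, 4780, 4356 and 5829 CPM in DMM, with 2 higher at an unadjusted p under 0.05 with the fold, against 1.91% of tested genes in that direction, 0 called by DESeq2, against 0.073%, and a median of 0.72. PBS replicate 3 lay within the range of the DMM libraries other than replicate 1. DMM replicate 1 lay within that of the PBS libraries other than replicate 3. With both counted, the ranges of the groups overlapped. With 8 libraries edgeR called 3 higher, Lrp2, Cubn and Slc5a12, against 2.73% of tested genes, DESeq2 called 7, against 3.71%, an unadjusted p with the fold gave 7, against 6.45%, and the median was 1.64. Lrp2, the endocytic receptor megalin, with the highest CPM of them over both groups together, had 529 ± 357 CPM in PBS and 1248 ± 789 CPM in DMM. Its log2 fold change was 1.24 (adjusted p = 0.430 by edgeR) over 10 libraries and 1.97 (adjusted p = 0.0138) over 8. DMM replicate 4 had 2504 CPM of Lrp2 against 355 to 1277 CPM in the other DMM libraries, and the 10-library value was 0.82 without it. The 7 markers of other kidney epithelium, with Umod the most abundant, had a median of 0.41 (0 at an unadjusted p under 0.05 with the fold). With 8 libraries the median was 0.95, edgeR called 3 higher, Slc12a1, Slc12a3 and Calb1, and DESeq2 called 4. Their sums were 3193, 2689, 4367, 2018 and 1789 CPM in PBS and 2794, 4244, 4856, 2009 and 5221 CPM in DMM. The defining genes of tubules (Lrp2, Umod, Aqp2) and podocytes (Nphs1) were detected in all 10 libraries, as the kidney label requires.

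The 12 interferon response genes summed to 4298, 2439, 3042, 4146 and 3926 CPM in PBS and 3056, 463, 401, 361 and 341 CPM in DMM. Over 10 libraries 12 of 12 passed an unadjusted p under 0.05 with the fold, all lower in DMM, with a median of -1.90, and over the 8 libraries both edgeR and DESeq2 called 12 of 12 lower, with a median of -3.36. Irf7, an interferon-induced factor, had 698 ± 219 CPM in PBS and 144 ± 194 CPM in DMM over 10 libraries, and 698 ± 252 and 57.1 ± 20.9 CPM over 8, with log2 fold changes of -2.28 and -3.61 (adjusted p = 0.378 and 0.00119 by edgeR). DMM replicate 2 separated the lists, since it was low for interferon response genes and had 45.3 CPM of the 9 T cell receptor genes, near the lowest PBS library at 49.8 CPM. Macrophage, dendritic cell, B cell, tubular and interferon response genes also differed between libraries, though not always in the same libraries as the T cell receptor genes. Their part in the result was not tested.

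**Figure D2:**
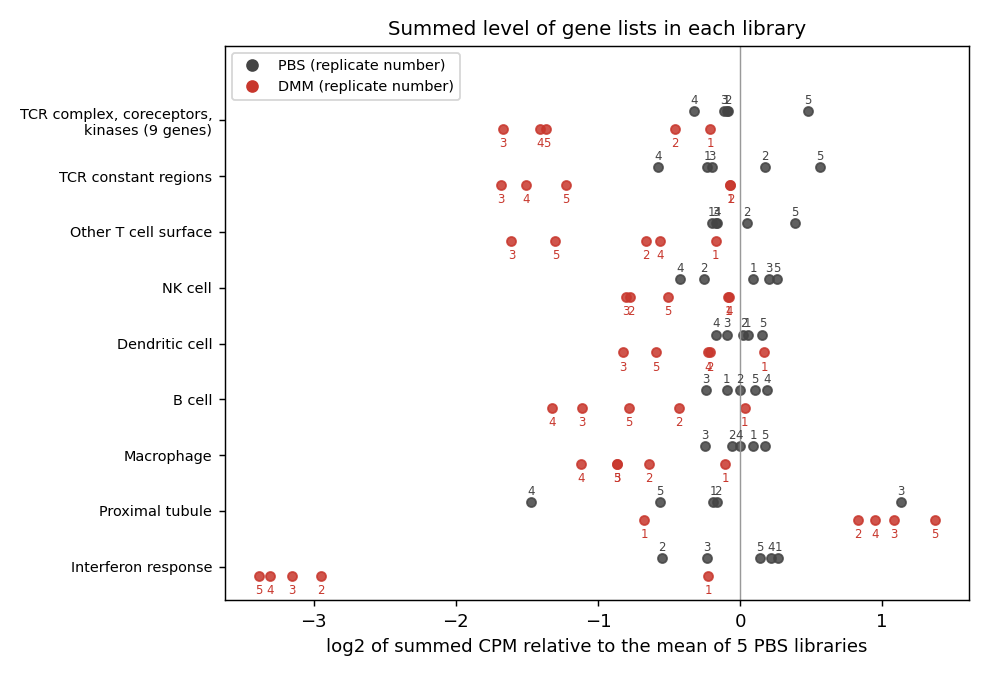
Summed CPM of the 9 T cell receptor genes and of 8 gene lists in each library, as log2 relative to the mean of 5 PBS libraries, with PBS in grey above and DMM in red below, and replicate numbers beside the points. For the T cell receptor genes DMM replicates 1 (-0.21) and 2 (-0.46) lie near the PBS libraries, whereas for the interferon response only DMM replicate 1 (-0.22) does.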

How the data were processed

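Kidney RNA of 10 mice with UUO, 5 given PBS and 5 given DMM, was extracted and sequenced as mRNA libraries. The sample labels name TRIzol for the extraction, and the paper names an extraction kit. The submitters' processing notes name HISAT2 2.0.5, and the paper names mm10. The counting tool, the annotation and the use of strand are not given in the sources used here. The authors deposited raw read counts per gene for each library, with no normalization, and FPKM, the counts divided by gene length and library size. They also deposited group means, a signal in normalized counts, which were used only to find which libraries they hold, by non-negative least squares. The authors' own fold changes and p-values of the comparison were not used.

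Counts were filtered by filterByExpr, scaled by TMM and tested by the quasi-likelihood F test of edgeR 4.0.16 in R 4.3.3, with Benjamini-Hochberg adjustment over all tested genes. SE values were derived from the F statistic and fold change. The steps were tested on simulated counts. The coreceptor ratio used a pseudocount of 0.5 counts and an exact permutation test, whose smallest p with 5 against 5 is 0.00794. The alternatives were DESeq2 1.42.0, RLE size factors, library size alone, other count filters, protein-coding genes alone, other thresholds and pseudocounts, FPKM, a replicate block, and each library left out in turn.

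The members and the lists were chosen with earlier results of these data known. Named genes were the 9 members, the 3 of smallest p in each of 4 T cell lists, the gene of highest CPM over both groups in each of 8 other lists, and the 5 genes whose log2 CPM correlated best with the members' mean z-score. Called genes outside this rule are named because their count was 5 or fewer, after their values were seen. A few genes of the lists are not reported by name here. Unused columns of per-sample values number 0.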

Additional observations from a re-analysis of the deposited data

Results flagged for a closer look

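Within the PBS group, replicate 5 stood far above the other 4 libraries for 4 of the 9 genes, as measured by its gap to the next library divided by the range of the group. This ratio was 0.884 for Cd3g, 0.761 for Cd247, 0.738 for Lck and 0.714 for Zap70. Chance flags about 1 in 20 groups, and 20 groups were screened. The 4 genes share the same library, so these are not separate events. The total count of PBS replicate 5 was 16508788 and its TMM factor 1.03, both within the range of the other PBS libraries.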

How the results depend on the processing

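The log2 fold changes of the 9 genes were below 0 in 161 of 161 alternative values over 10 libraries and in 134 of 134 over 8. These values refit the same libraries, so they are not independent and add no separate support for the direction. The alternatives for single genes over 8 libraries and for genes other than the members were chosen after seeing the data. Over 10 libraries, where edgeR called 0 genes and 0 members, DESeq2 called 45 genes, an unadjusted p gave 993 genes and 7 members, and the 8 libraries gave 1042 genes and 1 member. Leaving out single libraries gave 0 to 486 genes and 0 to 1 members, the upper values without DMM replicate 1, where Cd4 had an adjusted p of 0.0347 by edgeR (range over these alternatives 0.0347 to 0.702).

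Over 8 libraries, with 1042 genes and 1 member called, DESeq2 called 1659 genes and 5 members, and an unadjusted p gave 2265 genes and 8 members. Leaving out single libraries gave 407 genes (without PBS replicate 5) to 2410 genes (without DMM replicate 4), and 0 to 4 members. Without PBS replicate 2, 4 or 5 or DMM replicate 3 or 5, 0 members were called, beside 547, 477, 407, 494 and 470 genes in that order. There were 3 members without DMM replicate 2 (Cd4, Cd8a and Lck), beside 949 genes. Without DMM replicate 4 there were 4 members (Cd247, Cd3d, Cd3g and Cd4), beside 2410 genes. The cause of these shifts was not tested, beyond the smaller number of libraries.

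The difference in the coreceptor ratio, 0.04, became -0.0041 with a pseudocount of 5 and ranged from -0.21 to 0.26 without single libraries. The log2 fold change of Zbtb46 ranged from -0.15 to 0.0093 in the same way. Correlations of same-numbered libraries, after each group's mean was subtracted, were -0.06, 0.0792, 0.341, 0.124 and -0.223. Libraries of different numbers were not compared in this way, so whether the number pairs the samples was not tested. With the number as a replicate block, 0 genes and 0 members were called over 10 libraries, and 0 genes and 0 members over the libraries numbered 2, 4 and 5, and the ratio differed by 0.04 (exact p = 0.938). Cd3d could not be fitted with at least 10 counts in every library, since DMM replicate 4 had 4. Counts this low limit what a single gene can show, and reads without molecular identifiers are not independent molecules.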

Other observations

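DMM replicate 4 was not low for every T cell gene. The following genes of the lists were picked after their values were seen. Il7r, the interleukin receptor chain of naive and memory T cells, had 8.03 CPM in that library, within the PBS range of 4.34 to 8.71 CPM, while the other DMM libraries had 1.87 to 6.17 CPM. In the same library Lat, the adaptor that ZAP70 phosphorylates, had 0.181 CPM, against 3.46 to 6.71 CPM in PBS libraries and 1.22 to 3.64 CPM in the other DMM libraries. Batf3, a dendritic cell factor, had 0.785 CPM there and 3.97 to 9.71 CPM in the other 9 libraries.

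By Pearson r, Il2rb, Hvcn1 and Cxcr6 followed the T cell receptor genes most closely from library to library. Cxcr6, a chemokine receptor of tissue T cells, had 5.90 ± 2.56 CPM in PBS and 3.72 ± 1.91 CPM in DMM (log2 fold change -0.67, adjusted p = 0.528 by edgeR, n = 5 each), and -0.95 over the 8 libraries (adjusted p = 0.232). Without PBS replicate 5, which had 10.2 CPM against 3.46 to 5.59 CPM in the other PBS libraries, it was -0.37 over the remaining 9 libraries. Hvcn1, a proton channel found in leukocytes, had 6.97 ± 0.676 and 4.41 ± 1.01 CPM (log2 fold change -0.66, adjusted p = 0.378), and -0.81 over the 8 libraries (adjusted p = 0.0361).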
